A study of Mus musculus with 4 samples.

Results

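The regions described here are 505 peaks that lay antisense to an annotated gene, out of 27843 peaks called after RNA immunoprecipitation of Flag-tagged Lin28b. A peak was counted as antisense where its summit fell inside the span of a gene of the deposited tables on the opposite strand and inside no table gene of its own strand. The gene on the opposite strand is called the host. The wild-type list held 138 antisense peaks of 11912, or 1.16% (exact Clopper-Pearson 95% interval 0.974 to 1.37), and the mutant list held 367 of 15931, or 2.3% (2.08 to 2.55). These intervals, like all intervals below, cover counting error only, and peaks of 1 host or 1 list are not replicates.

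The cells were a mouse line labelled 15376CAFs, pancreatic cancer-associated fibroblasts, which overexpressed Flag-Lin28b in its wild-type form or in a mutant form described as deficient in binding RNA. An anti-Flag antibody recovered the RNA, and the libraries of recovered RNA (IP) and of input RNA came from a stranded mRNA kit, which keeps the strand of each transcript. There was 1 library in each of 4 groups: wild-type IP, wild-type input, mutant IP and mutant input. With no replicates, no difference below can be set against a spread between samples. The wild-type and mutant lists can be set side by side but not tested against each other. Both constructs were tagged and overexpressed, and no source used here names the promoter that drove them.

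Lin28b is an RNA-binding protein with a cold shock domain and a pair of zinc knuckles. It is known for holding back the maturation of microRNAs of the let-7 family, and it also binds mRNAs, often at GGAG motifs. An antisense transcript is read from the opposite DNA strand of a gene. Antisense transcripts can start inside a gene, come from the promoter of the gene in the reverse direction, or be the end of a neighbouring gene that runs past its annotated end. In stranded libraries some reads can also be assigned to the wrong strand during library synthesis. Which of these sources an antisense peak had was not tested.

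Some antisense peaks reached over promoter windows, and 4 of these windows show what the covered sequence looks like. The windows are those of RefSeq, build GRCm38.p6, from 250 bases before to 50 after a start site. Each is printed 5′ to 3′ on the strand of the gene it belongs to, with the bases under the antisense peak of the wild-type list in capitals. They were chosen to show the start of a shared host, of a host in the wild-type list alone, of a host with a peak in both lists at an inner start site, and the only window wholly under a wild-type antisense peak on the peak's own strand.
Rap1b, chr10:117845925-117846224, minus strand: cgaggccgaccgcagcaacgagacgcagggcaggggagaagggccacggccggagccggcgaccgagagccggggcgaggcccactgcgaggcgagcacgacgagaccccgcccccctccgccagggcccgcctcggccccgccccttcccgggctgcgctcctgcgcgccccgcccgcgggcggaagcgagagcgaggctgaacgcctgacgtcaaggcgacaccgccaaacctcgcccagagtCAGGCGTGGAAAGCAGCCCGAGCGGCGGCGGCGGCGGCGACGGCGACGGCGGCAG
Syncrip, chr9:88482348-88482647, minus strand: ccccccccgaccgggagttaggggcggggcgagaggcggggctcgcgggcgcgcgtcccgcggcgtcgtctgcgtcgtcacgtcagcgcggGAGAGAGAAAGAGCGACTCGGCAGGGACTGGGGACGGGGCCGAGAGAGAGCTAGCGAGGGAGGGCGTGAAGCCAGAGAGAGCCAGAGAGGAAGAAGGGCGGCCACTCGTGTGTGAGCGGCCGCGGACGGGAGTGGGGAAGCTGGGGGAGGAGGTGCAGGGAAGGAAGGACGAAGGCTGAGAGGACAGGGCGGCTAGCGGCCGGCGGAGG
LOC108168868 inside Naa15, chr3:51416133-51416432, plus strand: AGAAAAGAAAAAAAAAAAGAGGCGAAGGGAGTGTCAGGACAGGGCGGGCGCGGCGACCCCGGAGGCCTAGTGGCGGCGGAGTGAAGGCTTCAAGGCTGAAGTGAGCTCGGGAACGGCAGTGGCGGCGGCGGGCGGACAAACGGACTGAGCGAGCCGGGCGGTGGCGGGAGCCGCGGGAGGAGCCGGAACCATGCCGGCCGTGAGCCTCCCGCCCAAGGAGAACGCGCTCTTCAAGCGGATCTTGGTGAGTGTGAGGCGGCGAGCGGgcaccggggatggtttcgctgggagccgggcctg
1700006J14Rik inside Hmga2, chr10:120363884-120364183, plus strand: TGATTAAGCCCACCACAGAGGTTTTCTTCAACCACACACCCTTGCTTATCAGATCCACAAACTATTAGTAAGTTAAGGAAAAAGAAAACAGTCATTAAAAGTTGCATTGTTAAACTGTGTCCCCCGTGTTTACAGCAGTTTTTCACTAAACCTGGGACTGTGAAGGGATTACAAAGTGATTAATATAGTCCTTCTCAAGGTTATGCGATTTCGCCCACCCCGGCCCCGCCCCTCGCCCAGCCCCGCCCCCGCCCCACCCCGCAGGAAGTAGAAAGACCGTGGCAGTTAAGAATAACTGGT
In the Rap1b window 55 bases lay under the peak, in the Syncrip window 209, in the window inside Naa15 266 and in the window inside Hmga2 all 300. On the strand of the antisense peak the 55 bases of Rap1b read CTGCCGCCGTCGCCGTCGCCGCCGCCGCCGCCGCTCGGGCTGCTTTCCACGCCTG. The first 3 windows are rich in G and C, at 78.0%, 72.3% and 68.0%, against a median of 52.7% over all 32851 windows. The window inside Hmga2 stood at 47.7%. The letters GGAG occurred 5 times in the covered bases of Syncrip on the gene's strand and 0 times on the peak's strand, and 7 times and 1 time in those of the window inside Naa15. They occurred 0 times on either strand in the covered bases of Rap1b and of the window inside Hmga2. Of all whole windows 83.7% hold GGAG on the gene's strand, 82.1% on the other strand and 96.7% on either, so a match by itself is common. In all, 6 of 138 wild-type antisense peaks and 11 of 367 mutant ones reached over a promoter window. The same share over all peaks was not computed, so whether these counts are high or low cannot be said. Of these, 5 and 10 overlapped a window on the host's strand by at least 1 base, and 1 in each list overlapped a window on the peak's own strand. Some overlaps were short, such as 11 bases in Ddx47 and 12 in Dicer1. No antisense peak overlapped a microRNA hairpin of the RefSeq table.

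The libraries' values over all genes were as follows. Levels are read as FPKM (fragments scaled by transcript length and library size) from the values, since the deposited header names no unit, and the depth is unknown. The inputs showed fibroblast and epithelial genes side by side: wild-type and mutant inputs held Vim at 607 and 547 FPKM, Krt8 at 601 and 494, and Cdh1 at 219 and 114. The fibroblast genes Col1a1 (0.722 and 0.404), Acta2 (0.227 and 0.524) and Pdgfra (1.33 and 0.860) were low, while S100a4 (214 and 40.7), Fn1 (118, mutant 74.6), Sparc (93.8, mutant 83.8) and Fbln2 (47.3 and 11.4) were not. Of the epithelial genes, Muc1 (134 and 6.77), Krt7 (31.7 and 3.32) and Ly6e (114 and 0.174) were low in the mutant input. Others were not: Lcn2 (3.90 and 100) and Krt18 (395 and 441) were higher there, and Elf3 (34.9 and 32.5) was similar in both inputs. Of the fibroblast list 8 of 20 genes were measured, and of the epithelial list 13 of 19. Of all 15704 table genes, 0.605% hosted an antisense peak in the wild-type list and 1.0% in the mutant list. None of the measured fibroblast genes hosted an antisense peak, and Tjp1, a tight junction scaffold, was the only epithelial host. Of the leukocyte, endothelial and acinar lists 2, 1 and 1 genes were measured, and none was a host.

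Antisense peaks had higher folds than sense peaks but larger q-values, that is, weaker support. The fold of a peak and its −log10 q are the authors' own values throughout. In the wild-type list the median fold was 5.94 for antisense peaks (range 1.16 to 33.5) and 3.74 for the 11601 peaks inside a gene of their own strand. The median −log10 q was 12.2 against 21.7. The mutant medians were 5.31 (1.14 to 34.4) against 4.2 for fold, and 10.1 against 26.5 for −log10 q, with 15320 sense peaks. Antisense peaks had median widths of 228 and 225 bases in the wild-type and mutant lists, close to the minimum of 200. Sense peaks were only a little wider, with medians of 256 and 255 bases and the same minimum. Fold and −log10 q were both identical to those of another peak of the list for 51.4% of wild-type antisense peaks and 69.2% of mutant ones, against 26.9% and 34.2% of sense peaks. The peaks fell on both strands, 64 plus and 74 minus in the wild-type list, 150 and 217 in the mutant list.

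A sense peak, meaning a peak of the same list on the host's strand that overlapped by at least 1 base, lay at 86 of the 138 wild-type sites. That is 62.3% (53.7 to 70.4), where 1.61% of all wild-type peaks, antisense peaks included, overlapped a peak on the opposite strand. Sense peaks make up most of each list. The share over all peaks is therefore low by construction and is no expectation for antisense peaks. In the mutant list 264 of 367 sites had a sense peak, 71.9% (67.0 to 76.5), with 3.48% over all mutant peaks. The share depended on the overlap asked for: a sense peak covered at least 50% of the antisense peak at 42.0% of wild-type and 36.0% of mutant sites, so that the order of the lists turned, and an opposite summit lay within 100 bases at 12.3% and 12.5%. The sense peak was the better supported of the pair at 77 of 86 wild-type sites and 256 of 264 mutant sites. Its median −log10 q was 134 in the wild-type list and 154 in the mutant list. The folds were closer: the sense fold was the higher at 45 of 86 and 168 of 264 sites, and the median ratio of antisense to sense fold was 0.94 and 0.821.

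**Figure D1:**
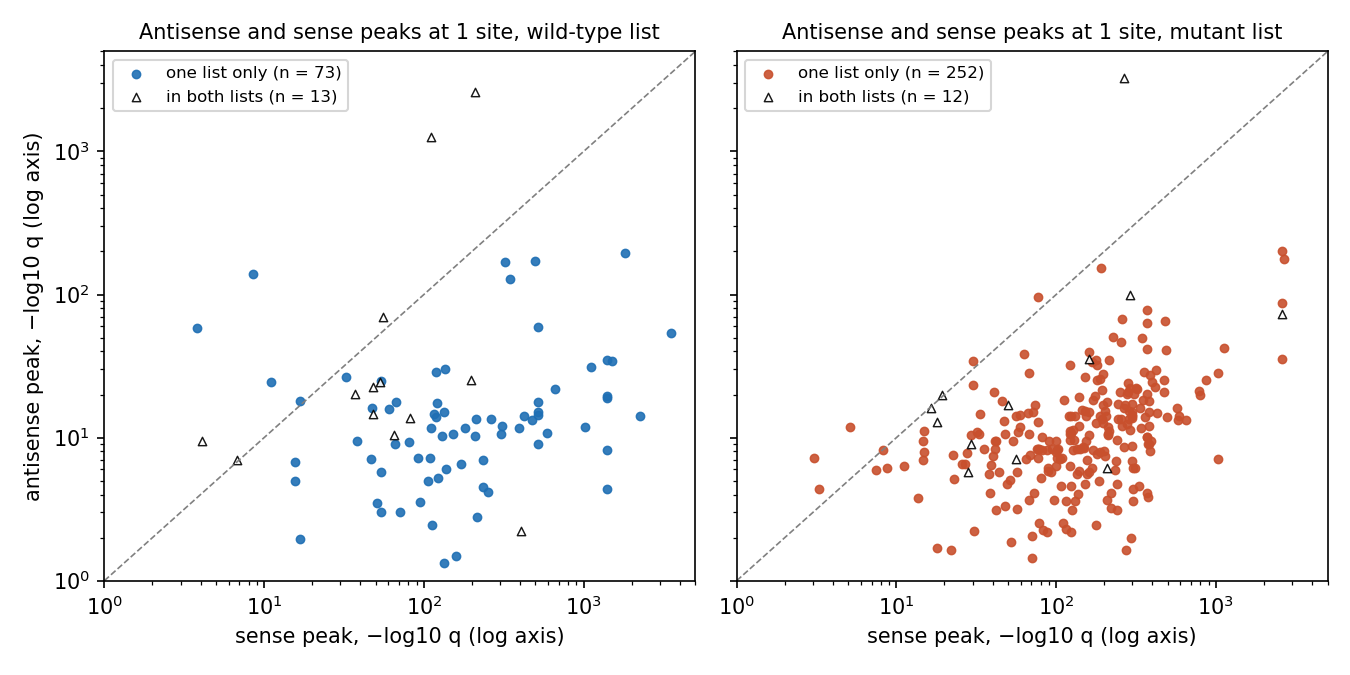
Each point is 1 antisense peak with a sense peak at its site, with −log10 q of the sense peak on the horizontal and of the antisense peak on the vertical log axis, wild-type list on the left and mutant list on the right. Most points lie below the dashed line of equality (77 of 86 and 256 of 264), and the Zc3h7a peaks, in both lists, are the highest points in each panel.

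Macf1 shows the arrangement. This cytoskeletal linker joins actin and microtubules. Its antisense peak at chr4:123394844-123395118 had a fold of 20.2 and a −log10 q of 67.7 in the mutant list, and the sense peak at chr4:123395056-123395442 had a fold of 8.63 and a −log10 q of 257. The antisense summit lay 251 bases downstream of the sense summit along the gene. In Rpl22l1, a paralog of a ribosomal protein, the wild-type antisense peak at chr3:28806548-28807044 had a fold of 16.3 and the sense peak 29.1, and the antisense summit lay 207 bases downstream.

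That offset recurred across hosts. The antisense summit lay downstream of the sense summit at 71 of 86 wild-type sites, 82.6% (72.9 to 89.9), and at 226 of 264 mutant sites, 85.6% (80.8 to 89.6). The median offset was 153 bases in the wild-type list (interquartile range 82 to 206) and 180 in the mutant list (83.2 to 206). An offset of 100 to 300 bases downstream was found at 47 of 86 and 155 of 264 sites. It was of like size on both strands: the median was 158 bases for plus-strand and 144 for minus-strand peaks in the wild-type list, and 169 and 183 in the mutant list. The antisense peak reached past the downstream edge of the sense peak at 50 of 86 and 185 of 264 sites. Summits within 100 bases of each other were found at 16 of 86 and 46 of 264 sites.

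**Figure D2:**
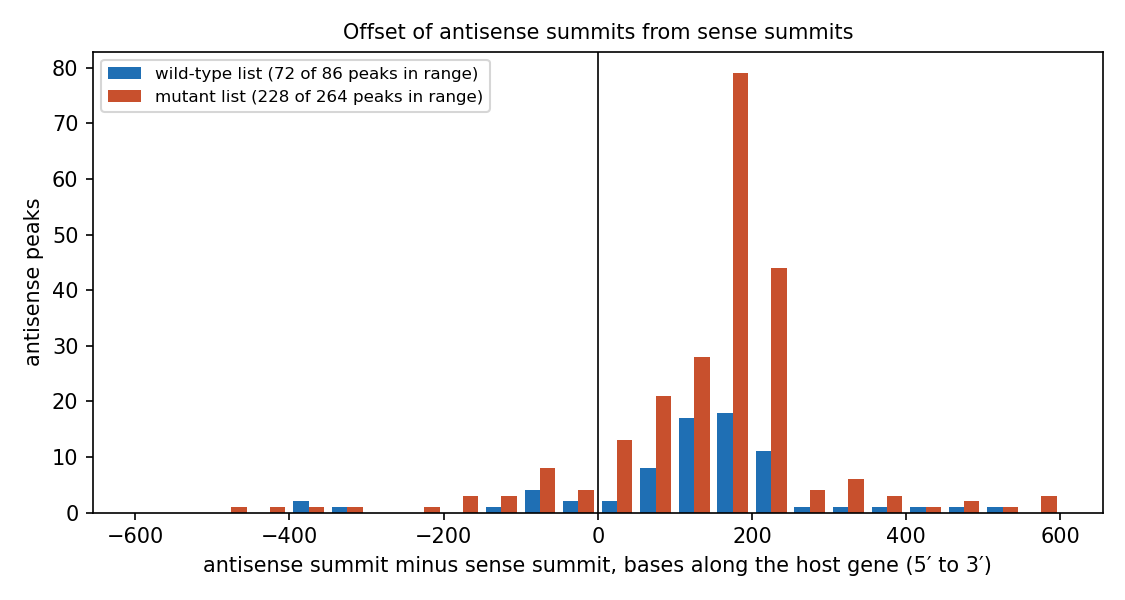
Histogram of the distance from the sense summit to the antisense summit in bins of 50 bases, with positive values downstream along the host gene; blue bars are the wild-type list (72 of 86 sites in range) and orange bars the mutant list (228 of 264). Both lists pile up to the right of 0, around their medians of 153 and 180 bases.

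Strong sense peaks had an antisense peak over them more often than weak ones. Sense peaks were ranked by −log10 q into 10 bins of equal size. Of the 1160 wild-type sense peaks in bin 10 (−log10 q 86.9 to 3541), 51 lay under an antisense peak, 4.4% (3.29 to 5.74), against 0.707% of all 11601. Bins 1 to 7 held 0 to 0.259%. Of the mutant sense peaks bin 10 held 149 of 1532, 9.73% (8.29 to 11.3), against 1.6% of all 15320 and 0.196% in bin 1. Ranked by fold, bin 10 held 2.41% in the wild-type list and 3.79% in the mutant list. Ranked by width, the widest bin held 2.07% and 4.24% and the narrowest 0.172% and 0.131%.

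**Figure D3:**
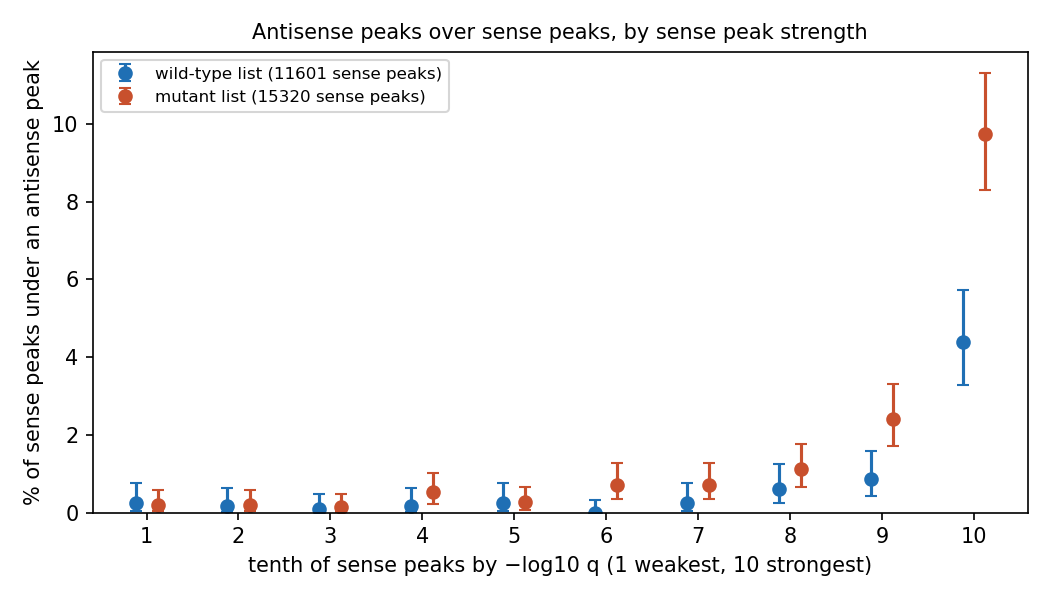
Share of sense peaks that lay under an antisense peak of the same list, in percent, in 10 bins of sense −log10 q from weakest to strongest; blue is the wild-type list, orange the mutant list, and bars are exact 95% intervals of counting error. Bin 10 stands at 4.4% and 9.73%, and bins 1 to 7 lie under 1% in both lists.

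The same held by gene. In the wild-type list 76 genes had both a sense and an antisense peak, and their median number of sense peaks was 6, against 2 in the 3303 genes with sense peaks alone. Their strongest sense peak had a median fold of 9.14 against 4.58. Among mutant peaks, 139 genes had both, with a median of 17 sense peaks against 3 in 2354 genes, and a median strongest fold of 9.71 against 4.57.

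Past 75% of the host's span, the share of antisense peaks was near that of sense peaks of the same genes. Of the wild-type antisense peaks 39.9% had their summit in the part of the host's span past 75% of its length, where 41.9% of 561 sense peaks of these hosts were. For the mutant it was 40.1%, with 37.3% of 3372 sense peaks. The median positions were less alike. In the wild-type list they were 61.1% of the span for antisense peaks and 69.0% for these sense peaks. In the mutant list they were 69.3% and 65.0%. Most antisense peaks overlapped a sense peak, so some likeness is built in. Within 1 kb of the host's 5′ end lay 20 wild-type and 28 mutant antisense peaks, and within 1 kb of the 3′ end 27 and 12.

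The antisense peaks fell in 226 hosts, 95 in the wild-type list and 157 in the mutant list, of which 90 and 153 were protein coding. Both lists held 26 of these hosts, 27.4% of the wild-type hosts and 16.6% of the mutant hosts. For genes with a sense peak the overlap was 1737, or 51.4% of 3379 wild-type and 69.7% of 2493 mutant genes. Most hosts had 1 peak (76 of 95 and 106 of 157), and a few had many. In the wild-type list 3 hosts with at least 5 peaks held 21 peaks, and in the mutant list 14 hosts held 170 of the 367. Set against all genes of the tables, hosts were long, with median spans of 38.3 kb and 81.6 kb against 17.1 kb and 18.0 kb. Genes with sense peaks alone had median spans of 40.3 kb (wild type) and 56.4 kb (mutant). Wild-type hosts were thus no longer than other genes with peaks. The median input of hosts was 34.2 and 26.7 FPKM, against 7.11 and 7.62 over all genes.

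Host mRNAs were often recovered by the IP of their own construct. Enriched here means an IP level of 2 times the input or more, with an authors' q-value under 0.05. Of 94 measured wild-type hosts 41 were enriched, 43.6%, against 7.4% of all wild-type genes, and of 155 mutant hosts 93 were, 60.0%, against 5.98% of all mutant genes. By the converse rule 2 and 6 hosts were lower, where 21.5% and 36.0% of all genes were. Peaks and levels come from the same IP libraries, so this is a description and no independent support. The log2 ratio of IP over input had a median of 0.92 in wild-type hosts and 1.17 in mutant hosts, against −0.29 and −0.61 over all genes.

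Hosts in a single list are given with their recovery by both constructs. The peaks that put a host in a list come from the same IP library as its level, so a higher ratio in that construct follows in part from the choice and supports nothing. The 69 hosts in the wild-type list alone had a median log2 ratio of 1.25 with their own construct, and 60 of the 68 measured in both were higher there than in the mutant. The 131 hosts in the mutant list alone had a median of 1.27 in the mutant and 0.38 in the wild type, and 117 of 128 were higher in the mutant. Over all genes in both tables the wild type was higher for 63.2%. Hosts in both lists had medians of 0.40 and 0.37. The authors scaled each table by itself, and in bulk samples less RNA per cell and fewer cells of a kind cannot be told apart.

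Hmga2, a chromatin protein of embryonic tissue and a classic let-7 target, carried 6 antisense peaks in the wild-type list and 0 in the mutant list. Its level was 371 FPKM in the wild-type IP, 39.5 in the wild-type input, 23.7 in the mutant IP and 14.6 in the mutant input, and its log2 ratios were 3.23 (wild type) and 0.71 (mutant). The wild-type IP was thus far above the other 3 libraries. All 6 antisense peaks had a sense peak at the site. The peak at chr10:120473069-120473321 had a fold of 18.1, beside a sense fold of 16.7 and an offset of 202 bases. The peak at chr10:120475778-120476103, 503 bases from the gene's 5′ end, had a fold of 9.70 beside a sense fold of 9.64, with an offset of 183 bases. The other 4 lay near the 3′ end under 1 broad sense peak of fold 14.5, at folds of 8.31, 7.38, 5.14 and 3.83. The last of them covered the RefSeq start of 1700006J14Rik printed above.

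In 3 other wild-type hosts with strong recovery, Rpl22l1, Vbp1 and Ube2d3, each antisense peak also had a sense peak. Not all enriched hosts were like this: in Nsmce1 2 of 3 antisense peaks had one, and in Hpf1 0 of 1. Rpl22l1 stood at 673 FPKM in the wild-type IP and 65.7 in its input, against 15.0 and 61.7 in the mutant. Vbp1, a subunit of the prefoldin chaperone, stood at 155 and 14.5 with the wild type, against 25.3 and 18.3 with the mutant, and had antisense folds of 9.79 and 8.64 beside sense folds of 18.1 and 17.8. Ube2d3, a ubiquitin-conjugating enzyme, stood at 444 and 79.2 against 79.1 and 83.9 and had 3 antisense peaks with folds of 8.72, 7.12 and 4.56, beside sense folds of 2.77, 29.3 and 10.9. In all 3 genes the wild-type IP was the highest of the 4 libraries.

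Nsmce1, a subunit of a complex of structural maintenance of chromosomes proteins, had IP and input levels of 93.8 and 16.9 FPKM with the wild type, against 5.80 and 26.5 with the mutant. Of its 3 antisense peaks, the one with the highest fold, 12.1 at chr7:125470977-125471177, had no sense peak, and those of 8.56 and 8.16 had one. Naf1, an assembly factor of box H/ACA ribonucleoproteins, had 1 antisense peak of fold 6.15 beside a sense fold of 21.0, with the antisense summit 188 bases downstream. Nfib, a transcription factor of the nuclear factor I family, had 7 antisense peaks, all with a sense peak. The antisense folds ran from 1.93 to 10.6, and 5 of the peaks lay under 1 broad sense peak near the 3′ end.

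Sting1, the adaptor of cytosolic DNA sensing, had the highest antisense fold of a named wild-type host, 27.0, over 1001 bases at the 3′ end. It was a case where the sense peak at the site was the weaker one, with a fold of 2.67. Further antisense peaks of Sting1 had folds of 11.4 and 10.3 beside sense folds of 12.3 and 42.5. The gene stood at 13.2 FPKM in the wild-type IP and 4.93 in its input, against 2.41 and 6.70 in the mutant, where it had no antisense peak. Syncrip, an RNA-binding protein of the hnRNP family, had a wild-type antisense peak of fold 14.0 at chr9:88482333-88482556, 193 bases inside its 5′ end, beside a sense fold of 5.01. Its IP and input levels were 49.2 and 28.8 with the wild type, against 33.2 and 32.9 with the mutant, and neither ratio reached 2-fold.

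The mutant list was led by very long genes, with spans of 293 kb for Syne2, 400 kb for Dst and 335 kb for Macf1. Syne2, a giant nesprin of the nuclear envelope, carried 34 antisense peaks, 28 of them with a sense peak, among 106 sense peaks. IP and input stood at 138 and 28.6 FPKM with the mutant. With the wild type, where Syne2 had no antisense peak, they were 37.0 and 25.7. Its highest-fold antisense peak, at chr12:75938731-75938936, had a fold of 13.0 beside a sense fold of 13.4 and an offset of 182 bases. Dst, which encodes dystonin, a relative of Macf1, carried 21 antisense peaks, 18 with a sense peak, with IP and input at 188 and 59.3 for the mutant, against 64.8 and 56.7 for the wild type. Macf1 carried 18, 17 with a sense peak, at folds of 3.64 to 20.2, and stood at 237 and 51.0 against 96.6 and 56.8. All 3 had no antisense peak in the wild-type list.

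Rnf213, a giant ubiquitin ligase, carried 11 antisense peaks, 10 with a sense peak. It differed from the others in that its inputs differed too, at 127 FPKM in the mutant and 11.4 in the wild type, with IP levels of 465 and 17.0. Dync1h1, the heavy chain of cytoplasmic dynein, had 11 antisense peaks, all with a sense peak, and Ubr4, a large ubiquitin ligase, had 10, 8 of them with one. The ubiquitin ligase Huwe1 and the cytolinker Plec had 9 each, with 7 and 9 at a sense peak. Birc6, a large inhibitor of apoptosis, had 7 in the mutant list, all at a sense peak, and 1 in the wild-type list.

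Ahnak, which encodes a very large scaffold protein, carried 9 antisense peaks in the mutant list and 1 in the wild-type list. IP and input stood at 1420 and 292 FPKM with the mutant, against 701 and 409 with the wild type. It held the longest antisense peak, of 6170 bases at chr19:9012427-9018596, and that one lay under a sense peak of 11780 bases with a −log10 q of 2601. Antisense peaks of high fold in the mutant list stood in Utrn, a dystrophin relative (19.9, sense 5.18), Ubr4 (18.9, sense 7.20) and Zfhx3, a transcription factor (13.3, sense 3.68). Others stood in Pds5a, a cohesin regulator (12.9, sense 9.14), and Tfrc, the transferrin receptor (12.5, sense 3.72). In this order, their offsets were 199, 232, 22, 208 and 198 bases. Each of these genes had further antisense peaks of lower fold in the mutant list.

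**Figure D4:**
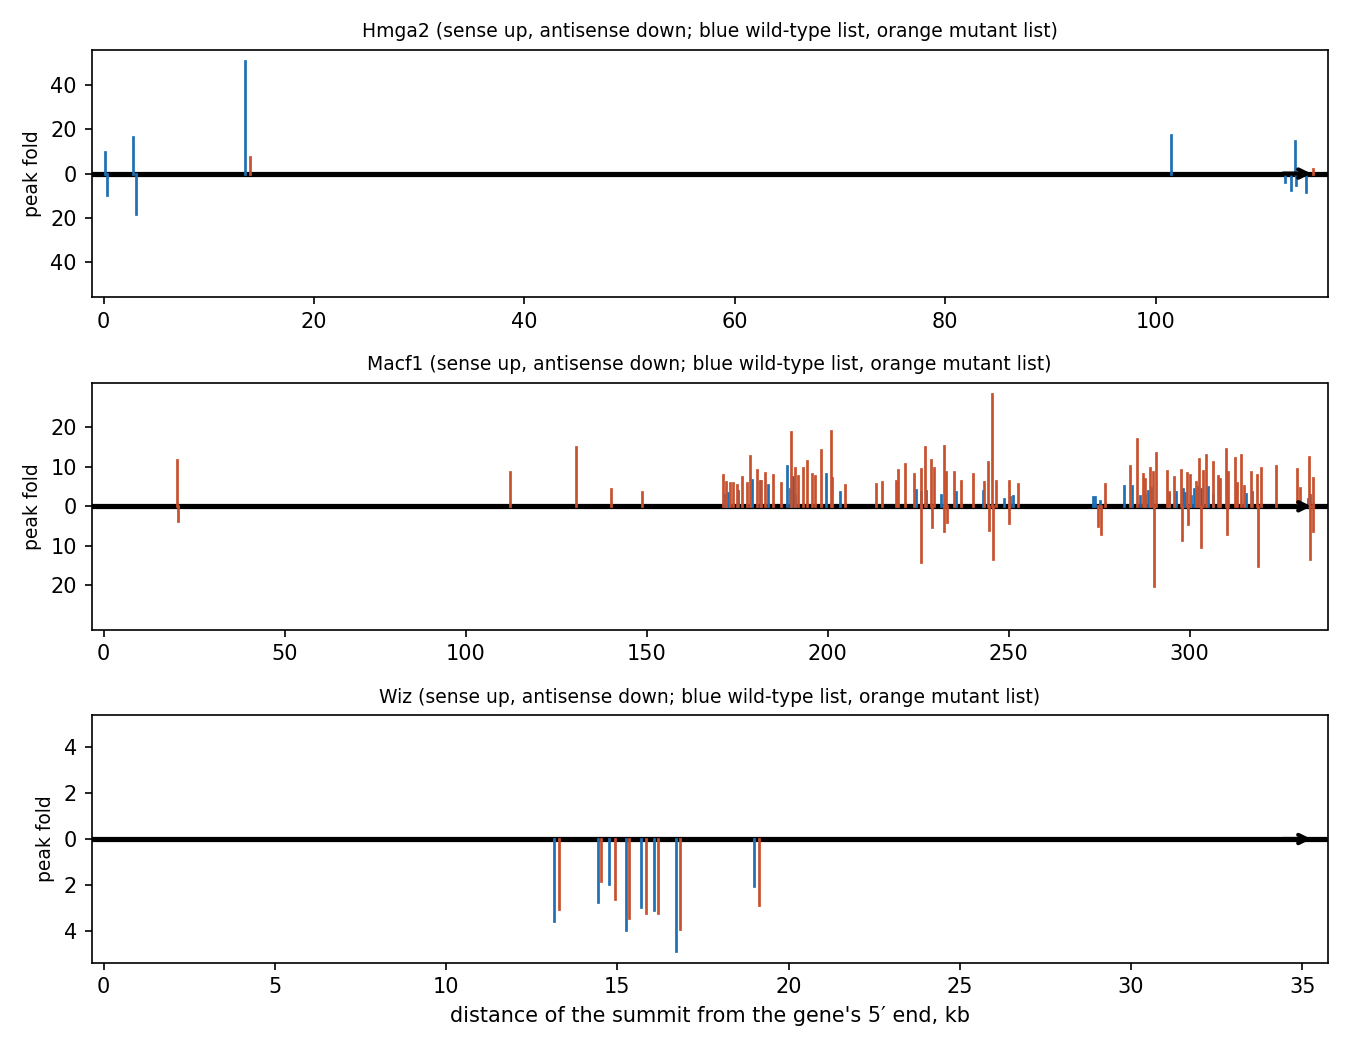
Summits of all peaks in Hmga2, Macf1 and Wiz by distance from the gene's 5′ end in kb, with the peak's fold drawn upwards for sense and downwards for antisense peaks; blue is the wild-type list, orange the mutant list, and lines of the lists are set slightly apart so that both can be seen. Hmga2 has 6 antisense peaks of the wild-type list beside or under sense peaks, Macf1 has 18 of the mutant list among 85 sense peaks, and Wiz has 8 of each list and no sense peak.

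Few antisense peaks were shared. Of the wild-type antisense peaks 34, or 24.6% (17.7 to 32.7), overlapped a mutant peak on the same strand, where 49.6% of all wild-type peaks did. Of the mutant antisense peaks 34 overlapped a wild-type peak, 9.26% (6.5 to 12.7), where 36.2% of all mutant peaks did. When both lists were held to 11912 peaks, the mutant ones of highest −log10 q, the shares were 17.4% and 15.1%. The share over all peaks was not computed at that length, so these 2 shares have no background beside them. All 34 partners were themselves antisense peaks, and they lay in 24 hosts. Of wild-type peaks without a sense peak 21 of 52 were shared (40.4%, 27.0 to 54.9), against 13 of 86 with one (15.1%, 8.3 to 24.5). In the mutant list it was 22 of 103 (21.4%, 13.9 to 30.5) against 12 of 264 (4.55%, 2.37 to 7.81). Peaks of 1 host are not independent, and 8 of the 21 and 8 of the 22 were peaks of the gene Wiz. Without Wiz, left out after seeing the data, 13 of 44 wild-type peaks without a sense peak were shared (29.5%, 16.8 to 45.2), and 14 of 95 mutant ones (14.7%, 8.3 to 23.5). Where a wild-type antisense peak was unshared but had its own sense peak, the mutant list held a sense peak at 25 of the 73 sites. In the opposite direction the wild-type list held one at 82 of 252.

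Wiz is a zinc finger protein that works with the histone methyltransferases G9a and GLP. Its 8 antisense peaks in each list lay within 6.01 kb (wild type) and 6.15 kb (mutant), at folds of 1.96 to 4.90 and 1.84 to 3.92. All were shared, no sense peak lay at any of them, and the gene had 0 sense peaks in both lists. IP and input of Wiz stood at 20.9 and 35.8 FPKM for the wild type, against 15.2 and 27.4 for the mutant, so the IP was below input in both constructs.

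The strongest shared antisense peak was in Zc3h7a, a zinc finger protein linked to microRNA processing. This peak had the same bounds in both lists, chr16:11143952-11144315, with folds of 23.1 and 34.4 and −log10 q of 2593 and 3272. The sense peak at the site was weaker, with folds of 7.83 and 11.9, and the summits almost coincided, at offsets of −11 and −3 bases. The gene's own log2 ratios of IP over input were 0.59 (wild type) and 0.43 (mutant), both short of 2-fold.

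Several shared peaks lay just inside the 5′ end of the host. Rap1b, a small GTPase of cell adhesion, had folds of 16.3 and 5.59 at 189 and 220 bases from its 5′ end, beside sense folds of 25.9 and 11.9. Cnot6, a deadenylase of the CCR4-NOT complex, had 11.1 and 4.24 at 243 and 219 bases. Clint1, an adaptor of clathrin vesicles, had 6.23 and 5.09 at 160 and 211 bases, beside sense folds of 32.2 and 24.0. Actn4, an actin crosslinker, had 5.46 and 4.40 at 238 and 217 bases. In Naa15, the auxiliary subunit of an N-terminal acetyltransferase, the folds were 4.04 and 10.9, at 1059 and 1050 bases, over the inner start printed above. The fold was thus the higher in the wild type for the first 4 and in the mutant for Naa15. Over all 34 shared antisense peaks it was the higher in the wild type at 15 and in the mutant at 19.

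Other shared peaks had no sense peak in either list. Acat2, an enzyme of acetyl-CoA metabolism, had folds of 7.30 and 6.61 at 790 and 788 bases from its 3′ end. Hnrnpl, a splicing regulator, had 5.97 and 6.50. In Hhat, the acyltransferase of Hedgehog proteins, folds of 7.62 and 10.2 stood in a gene at 0.0807 FPKM in the mutant IP and 0.312 in its input, and in no row of the wild-type table. None of these 3 hosts had enriched mRNA where measured. Acbd5, another host with a shared antisense peak and no sense peak at the site, was enriched with the wild type. Its IP and input stood at 57.9 and 22.9 FPKM there, against 24.8 and 18.1 with the mutant.

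Without a sense peak were 52 wild-type and 103 mutant antisense peaks. Of these, 20 and 69 lay in hosts that had a sense peak elsewhere. The highest folds were 12.7 in the wild-type list, in Gnb1l, at 0.787 FPKM in the wild-type IP and 0.750 in its input, and 10.2 in the mutant list, reached in both Nbea and Hhat. Near the 5′ end were Hpf1, a cofactor of PARP1 (fold 8.07, 149 bases), and Ddx47, an RNA helicase (7.56, 130 bases), both in the wild-type list. IP and input of Hpf1 stood at 105 and 22.6 FPKM for the wild type, against 8.44 and 23.7 for the mutant. Inside Egfr, the epidermal growth factor receptor, an 819-base peak of fold 5.02 fell within the RefSeq gene Gm39584, and inside Far1 a peak of 6.92 fell within Far1os. In all, at least 8 wild-type and at least 21 mutant antisense peaks had their summit inside a RefSeq gene of the same strand that the tables' spans did not reach there. RefSeq genes whose strand was not known were not counted.

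Neighbours in tail-to-tail order made up part of these. Within 5 kb downstream of a table gene of the same strand lay 18 wild-type and 23 mutant antisense peaks, of which 9 and 16 had no sense peak. Bace1, the beta-secretase gene, and Rnf214, a RING finger gene, end against each other. In the mutant list 4 peaks antisense to Bace1 lay 547 to 4237 bases past the tables' end of Rnf214, within the RefSeq span of Rnf214. A further 9 antisense to Rnf214 lay 5932 to 12154 bases past the end of Bace1. None of the 13 had a sense peak, and the wild-type list had no antisense peak in either gene. Both genes were at 10.2 to 27.2 FPKM in all 4 libraries. A peak of 2143 bases and fold 7.06 antisense to Ppp2r1b lay 2606 bases past the end of Sik2, within its RefSeq span. In 9430091E24Rik, 3 antisense peaks in each list, all shared, lay 472 to 2498 bases past the end of Pdpr. In Gsdme, the pyroptosis effector gasdermin E, 3 wild-type and 4 mutant antisense peaks, 2 of them shared, lay 878 to 9290 bases past the end of Mpp6.

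Over all genes 0.605% were wild-type and 1.0% mutant hosts. Among 34 genes of textbook sense-antisense pairs, 28 were measured, and 0 hosted a wild-type and 2 a mutant antisense peak: Bace1 and Vps13b, a lipid transfer protein, with 1 peak of fold 9.25 beside a sense fold of 5.47. Of 20 measured genes of a list of 22 let-7 targets and pathway genes, Hmga2 was a host in the wild-type list and Dicer1, the enzyme that cuts microRNA precursors, in the mutant list, with folds of 8.10 and 7.56, both with a sense peak. Of the abundant mRNAs Rps16, a ribosomal protein, and Ahnak were hosts in the wild-type list and Ahnak in the mutant list. Rps16 had wild-type folds of 8.04 and 4.26, with IP and input at 845 and 256 FPKM, against 50.5 and 210 with the mutant. Actb, Gapdh, Malat1 and Lin28b itself hosted no antisense peak.

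Of 13 mitochondrially encoded genes 3 hosted an antisense peak in the wild-type list and 0 in the mutant list, where 0.605% and 1.0% of all genes did. These peaks were of low fold, 1.79 in mt-Co1, 1.70 in mt-Nd4 and 1.70 in mt-Nd5, all within genes of 444 FPKM or more in the wild-type input. Mitochondrial DNA is known to be transcribed on both strands in long units. IP and input of mt-Co1, a subunit of cytochrome c oxidase, stood at 4294 and 2189 FPKM for the wild type, against 1057 and 2610 for the mutant.

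Predicted genes gave some of the highest folds. Gm10801 had the highest wild-type antisense fold, 33.5, beside a sense fold of 4.79, and Gm10800 had 12.9 and 7.72 in the wild-type and mutant lists. Gm10722 and Gm21738 carried 2 and 3 wild-type antisense peaks. These genes were listed at 0 in at least 1 input, and Gm10801 and Gm10800 lie next to each other on opposite strands. Reads of near-identical copies can be split by counting, so the values of these hosts are uncertain.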

How the data were processed

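Gene tables and peak lists from 4 libraries, 1 per group, were used as deposited. The processing notes of the submitters name HISAT2 2.1.0, MACS2 2.2.7.1, HOMER 4.11.1, bedtools and the builds mm10 and GRCm38, with no roles. Per the file headers, the authors gave p-values, q-values and log2 ratios between IP and input beside the levels of each gene. The header names no unit, and the values read as FPKM as the authors deposited them. The ratios in the text, log2 of (IP + 0.01) over (input + 0.01), differed from the deposited ones by at most 1.57e-09. The deposited peak lists, 1 per IP and with no pooling, hold the authors' score, fold (a ratio), −log10 p-value, −log10 q-value and the summit's distance from the start. No source used here says what control the peak caller used.

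Positions were compared with the spans of 15704 genes of either table in Python 3.11.15 with pandas 2.3.3. The classification was checked on simulated peaks. Hosts were the named gene before a predicted one, then the shortest span. No exon model or genome was used, so exons were not assigned. Symbols come from the mutant table, and genes of the wild-type table alone have none. The strand of a RefSeq gene was taken from its promoter entry or, by symbol, from the gene tables. Named genes were the hosts of the 10 highest-fold antisense peaks in each list, shared, unshared and without a sense peak, the 10 hosts with most peaks, the 10 longest peaks, members of the gene lists that are hosts, Lin28b, Actb, Gapdh and Malat1. Predicted genes were left out of the ranked parts, and some results that the rule covers are not reported here. Predicted hosts, neighbouring genes and the hosts of promoter windows named in the text were chosen after their values were seen. So were Clint1, Actn4, Naf1, Ube2d3, Hnrnpl and Acbd5. Members and lists were chosen with earlier results of these data known. Alternatives were other thresholds, overlap rules, tables, host rules and list lengths.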

Additional observations from a re-analysis of the deposited data

How the results depend on the processing

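No paired analysis was possible because each group had 1 library. For the number of antisense peaks, the share with a sense peak and the share overlapped by the other list, in each list, 68 alternatives were computed, and 58 kept the value within the interval or, for numbers, within 1.5 times. Peaks of −log10 q of at least 10 left 86 antisense peaks in the wild-type list and 186 in the mutant list. A sense peak covering at least 50% of the antisense peak was found at 42.0% and 36.0% of sites, and an opposite summit within 100 bases at 12.3% and 12.5%. When the mutant list kept as many of its best peaks by −log10 q as the wild-type list holds, 17.4% of wild-type and 15.1% of mutant antisense peaks were shared, since the mutant list then held 159. With the highest-fold peak of each host alone, chosen after seeing the data, 13.4% of mutant antisense peaks were shared and 66.9% had a sense peak. The depth of the libraries is unknown, and peaks are the authors' calls from 1 IP each, so a peak missing from a list was not shown to be absent.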
